A study of Mus musculus with 47 samples.

Results

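The comparison described here is that of ethanol vapor with air in the medial prefrontal cortex (PFC) at the end of exposure, in the 6 CIE mice and 6 Ctrl mice killed 0 hours after their last chamber session. These mice were taken by the exposure and harvest time in their labels and give 12 of the 47 arrays of the series, each array holding the RNA of 1 mouse. All 12 mice were adult male C57BL/6J mice. CIE (chronic intermittent ethanol) mice spent 16 hours a day, on 4 days, in ethanol vapor of 10 to 13 mg per liter, then had 7 days without it, and went through 4 such cycles with an ethanol injection of 1.6 g/kg before exposure. Ctrl mice received saline in place of that injection and inhaled air. Mice of both groups were given pyrazole at 1 mmol/kg, an inhibitor of alcohol dehydrogenase, so that the comparison holds the effect of ethanol on top of pyrazole. The other 35 arrays come from mice killed 8h, 72h or 7d after the last session (6 per group, 5 in the CIE group of 8h) and are used for the spread between mice and for a comparison of the 0h effect with later ones.

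Neurons that fire strongly switch on a set of immediate early genes through calcium and the MAP kinase cascade, whose products include transcription factors such as Fos and Egr1, the synaptic regulators Arc and Homer1, and the neurotrophin Bdnf. Ethanol depresses excitatory and enhances inhibitory transmission, and repeated exposure is followed by a hyperexcitable state in withdrawal. The prefrontal cortex is studied in this setting for its part in the control of drinking, and glucocorticoids, which are released during intoxication, act on the same tissue through a nuclear receptor.

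Expression was read as log2 RMA intensity from 45037 probesets, groups of short probes on the array that each report on a transcript. A probeset is called bright where its mean over the 12 arrays was at or above that of the median probeset, 6.42, and dim below it. Changes are CIE minus Ctrl on the log2 scale with the standard error of the limma fit (± SE). Rose, fell and passed are used of a false discovery rate (FDR) at or below 0.01 over all 45037 probesets. Levels are given as the lowest, median and highest log2 value of 6 mice. Levels of different probesets cannot be compared with each other, and in whole tissue a smaller number of cells of a type cannot be told apart from less RNA per cell.

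Pairwise correlations among the 12 arrays lay between 0.981 and 0.997, and 0 pairs of arrays of the series were identical. Markers of striatum, which lies below the dissected cortex, separated 3 of the CIE mice from all others. The mean of 18 striatal markers was 8.24 to 8.61 in the 6 Ctrl mice and 8.43 to 8.51 in CIE mice 43, 67 and 72, but 9.30, 9.79 and 10.17 in CIE mice 17, 5 and 11. All 18 markers were higher in CIE mice (median 0.68) and 0 passed singly by limma, with 12 at an unadjusted p of 0.05 or less. Meningeal markers stood apart in Ctrl mouse 56, whose mean over 14 genes was 8.63 against 6.62 to 6.99 in the other 11 mice. Cortical pyramidal markers, which define the labelled tissue, were present in every mouse (mean of 22 genes 9.54 to 9.89 in Ctrl and 9.73 to 9.84 in CIE mice). Each call was therefore also made without CIE mice 5, 11 and 17, which leaves 3 CIE mice, and with the striatal marker mean as a model term. Of 161 called probesets named below, 116 lost their call in the first of these fits and 63 in the second. A fit of the 12 arrays alone lost 87 and leaving out CIE mouse 5 lost 56, and 35 kept their call under all 22 settings tried. For dim probesets there were 21 settings, because a fit of bright probesets alone leaves them out. With 3 CIE mice left the first fit has less power, so a lost call there need not mean a smaller difference. In that fit Egr3 was at -0.72 (-0.65 with every CIE mouse), Gpr3 at -0.74 (-0.73) and Zbtb16 at 0.42 (0.42). By contrast Kcna5 was at 0.57 (1.13), Nfkbia at 0.32 (0.51) and Kcnip2 at 0.20 (0.33). These genes were picked after their values were seen.

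In total 3277 probesets passed (7.28% of 45037), 1663 of them higher and 1614 lower in CIE mice. Bright probesets made up 1240 of these calls (5.51% of 22519), with 619 rises and 621 falls, and dim probesets 2037 (9.05% of 22518), with 1044 rises and 993 falls. Called changes were of moderate size. Their median absolute value was 0.36 among bright and 0.43 among dim probesets, and 22 bright and 20 dim probesets changed by more than 1, which is a doubling or halving of intensity. The share called was not highest among the brightest probesets. Over deciles of probesets by level it peaked at 12.3% in decile 4 (median level 5.21), and was 4.15% in the dimmest decile and 4.24% in the brightest. All 6 CIE mice lay above all 6 Ctrl mice in 441 bright probesets (1.96%) and below them in 495 (2.20%). Without CIE mice 5, 11 and 17, 322 bright probesets passed, and 309 of the 1240 kept their call and direction. With striatal markers as a term 819 passed and 694 were kept, and without CIE mouse 5 alone 729 passed.

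**Figure D1:**
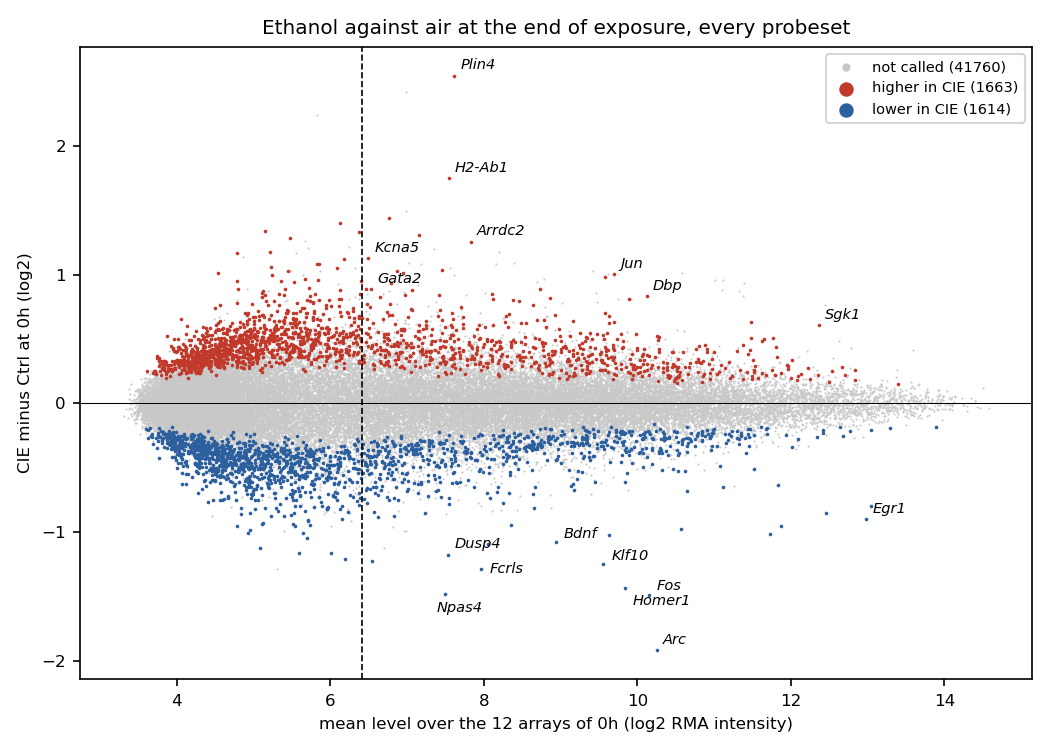
Difference between CIE and Ctrl mice at 0h (vertical axis, log2) against the mean level over the 12 arrays (horizontal axis, log2 RMA intensity), 1 point per probeset, with the cut between dim and bright at 6.42 as a dashed line. Plin4 (2.54) and Arc (-1.92) mark the extremes among labelled genes, and most called probesets lie within 1 of zero.

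**Figure D2:**
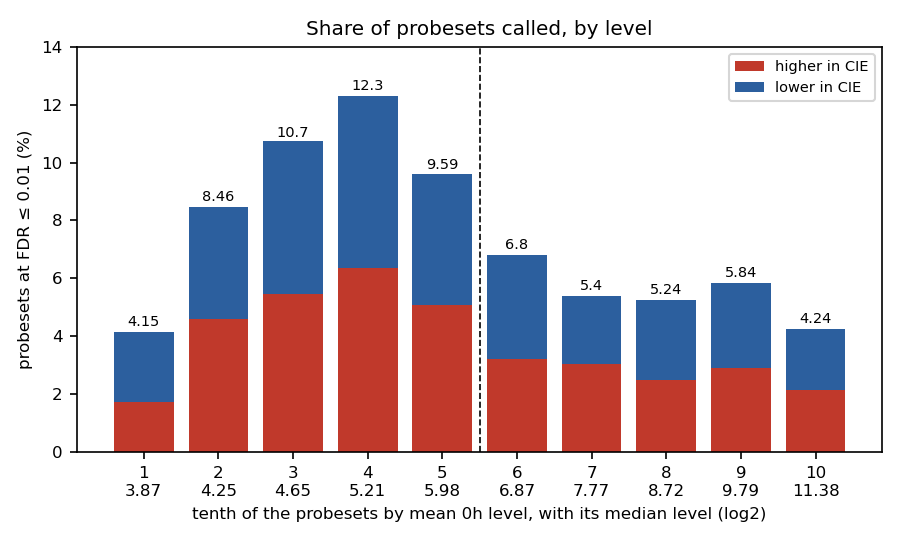
Share of probesets at FDR ≤ 0.01 (vertical axis, percent) in each decile of the probesets by mean 0h level (horizontal axis, dimmest to brightest, with the median level in log2), split into higher and lower in CIE mice. The share climbs from 4.15% in the dimmest decile to 12.3% in decile 4 and is 4.24% in the brightest.

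Many genes induced by neuronal activity were lower in ethanol-exposed mice. Of 22 immediate early transcription factors measured, 8 fell and 1 rose, and of 22 activity-induced synaptic and secreted effectors 5 fell and 0 rose, where 3.95% of 18193 genes rose and 3.52% fell when each gene was read from its brightest probeset. These shares, together 7.47%, are the background of each list count given below. The median change was -0.56 for the transcription factors and -0.28 for the effectors, against 0.01 over all genes. The transcription factors that fell were Fos, Npas4, Nr4a1, Egr1, Egr3, the Egr corepressor Nab2, Ier5 and Srf, and the effectors were Arc, Bdnf, Nrn1, Gpr3 and Pcsk1.

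Arc, which removes glutamate receptors from synapses, read 10.71, 11.21 and 11.66 in Ctrl mice and 8.21, 9.41 and 9.98 in CIE mice. The groups did not overlap, the lowest CIE mouse being CIE mouse 5, and the difference was -1.92 ± 0.37 (adjusted p = 3.59e-04). Fos, a subunit of the AP-1 factor, read 10.26, 10.81 and 11.94 in Ctrl mice and 7.95, 9.75 and 10.02 in CIE mice, again without overlap, and differed by -1.48 ± 0.37 (adjusted p = 0.00498). The call for Fos did not hold without CIE mouse 5 (adjusted p = 0.0270) or with the striatal term (adjusted p = 0.0376), and without CIE mice 5, 11 and 17 adjusted p was 0.0458 for Fos and 0.0102 for Arc. Npas4, a factor induced by calcium entry, read 7.49, 8.31 and 9.02 in Ctrl mice and 6.09, 6.75 and 7.92 in CIE mice. A single CIE mouse, at 7.92, reached into the Ctrl range, and the difference was -1.48 ± 0.31 (adjusted p = 9.71e-04), with adjusted p = 0.0425 without those 3 mice. Homer1 showed the fall on 1 of its 6 probesets, which read 10.05, 10.58 and 11.22 in Ctrl mice and 8.15, 9.27 and 9.54 in CIE mice with no overlap (-1.43 ± 0.28, adjusted p = 4.20e-04), while its brightest probeset differed by -0.09 (adjusted p = 0.418).

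Egr1, a zinc finger factor and one of the brightest called genes of the arrays, read 13.00, 13.50 and 13.68 in Ctrl mice and 11.81, 12.66 and 12.96 in CIE mice. All CIE mice lay below all Ctrl mice and the difference was -0.90 ± 0.14 (adjusted p = 3.48e-05). Bdnf fell on both of its bright probesets. The brighter read 9.18, 9.45 and 9.73 in Ctrl mice and 7.83, 8.46 and 8.85 in CIE mice (-1.07 ± 0.18, adjusted p = 7.48e-05) and the other differed by -0.95 ± 0.16 (adjusted p = 9.47e-05), with no overlap on either. Jun, the AP-1 partner of Fos, went the other way and read 8.78, 9.28 and 9.50 in Ctrl mice and 9.66, 10.10 and 10.79 in CIE mice (1.00 ± 0.15, adjusted p = 1.14e-05), the lowest CIE mouse lying above the highest Ctrl mouse. Smaller falls without overlap were those of Ier5 (-0.51 ± 0.10, adjusted p = 5.82e-04) and of Egr3 (-0.65 ± 0.15, adjusted p = 0.00223). Nab2 changed by -0.36 ± 0.09 (adjusted p = 0.00345) and Srf, the serum response factor, named after its value was seen, by -0.24 ± 0.06 (adjusted p = 0.00801). Nr4a1, an orphan nuclear receptor, differed by -0.97 ± 0.24 (adjusted p = 0.00486). When CIE mice 5, 11 and 17 were left out, Egr1, Bdnf, Jun and Nab2 kept their calls and Ier5, Egr3, Srf and Nr4a1 did not (adjusted p = 0.0153 to 0.0557). The striatal term ended the calls of Egr3 and Nr4a1 (adjusted p = 0.0129 to 0.0307), and so did leaving out CIE mouse 5 for Nab2, Srf and Nr4a1 (0.0114 to 0.0309).

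Among the secreted and surface effectors, Nrn1, which encodes neuritin, differed by -0.64 ± 0.14 (adjusted p = 0.00135). Gpr3, a receptor that raises cAMP without a ligand, changed by -0.73 ± 0.16 (adjusted p = 0.00157) and Pcsk1, a convertase that cleaves prohormones, by -0.69 ± 0.16 (adjusted p = 0.00269), both on dim probesets. Without CIE mice 5, 11 and 17 the calls of Nrn1, Gpr3 and Pcsk1 were lost (adjusted p = 0.0101 to 0.0529). Adjusted p with the striatal term was 0.0120 to 0.0175 for Nrn1, Gpr3 and Pcsk1. The mean over the transcription factor list was 9.01 ± 0.31 (SD) in Ctrl mice at 0h and 8.51 ± 0.18 in CIE mice at 0h, while the Ctrl mice of 8h, 72h and 7d averaged 8.86 ± 0.27, 8.63 ± 0.10 and 8.62 ± 0.19 (SD, n = 6 per group).

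Several of these falling genes carry the core letters of the cAMP response element, the site bound by the CREB factor, close to their start. Other genes that fell, among them Ier5, Nab2, Etv5, Spry2, Dusp6 and Spred1, held no such site in the 250 bases searched. The stretches below, of 40 bases each, are shown because they hold that site in the genes that fell; they come from RefSeq for build GRCm38.p6, read 5′ to 3′ on the gene's strand, with the core site TGACG or its reverse complement CGTCA in capitals.
Fos, chr12:85473807-85473846, plus strand: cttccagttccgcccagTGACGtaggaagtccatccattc
Npas4, chr19:4990118-4990157, minus strand: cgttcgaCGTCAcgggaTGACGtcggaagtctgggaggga
Nr4a1, chr15:101266789-101266828, plus strand: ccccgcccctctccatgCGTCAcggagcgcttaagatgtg
Bdnf, chr2:109692384-109692423, plus strand, from a gene with 7 promoters in the table: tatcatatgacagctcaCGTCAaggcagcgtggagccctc
Homer1, chr13:93303717-93303756, plus strand, from a gene with 2 promoters in the table: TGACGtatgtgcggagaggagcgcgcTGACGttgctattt
Nfil3, chr13:52981076-52981115, minus strand: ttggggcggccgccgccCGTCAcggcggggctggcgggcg
The core site was searched on both strands in the 250 bases before each start and overlaps the full site TGACGTCA, of which it is a part. It is present in 19.8% of 27025 genes with a promoter in the table and in 31.5% of the 9006 of these that have a bright probeset. Of bright genes that fell, 40.7% of 369 held it, and of those that rose, 27.5% of 382. The median GC content of the windows was 60.8% and 60.5% in these 2 sets and 60.4% over genes with a bright probeset. The full site stood in 3.52% of the falling and 3.14% of the rising set, and in 3.10% of genes with a bright probeset. Among the genes named here it occurred in Pcsk1, Fscn1, Sstr2 and Suv39h2, which fell, and in Dusp8, which rose, and the pair below is shown because it moved in opposite directions.
Pcsk1, chr13:75089763-75089802, plus strand, full site in capitals: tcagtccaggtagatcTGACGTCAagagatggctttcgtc
Dusp8, chr7:142095324-142095363, minus strand, full site in capitals: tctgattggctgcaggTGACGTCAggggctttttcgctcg
These matches describe the letters in the window and no binding was measured.

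Several negative regulators of the MAP kinase cascade fell as well. Many of these genes are themselves induced by ERK signalling and switch it off again. Of 17 measured, 6 fell (Dusp4, Dusp6, Spry2, Spry4, Spred1 and the ERK-induced factor Etv5) and 2 rose (Dusp2 and Dusp8), and the median was -0.22. Dusp4, a nuclear phosphatase of ERK, read 7.88, 8.01 and 8.62 in Ctrl mice and 6.45, 6.95 and 7.41 in CIE mice (-1.17 ± 0.21, adjusted p = 1.57e-04). Its groups did not overlap. Spry4 read 6.66, 6.68 and 6.89 in Ctrl mice and 5.83, 5.96 and 6.14 in CIE mice on a dim probeset (-0.75 ± 0.13, adjusted p = 6.99e-05), and a second, dimmer Spry4 probeset also passed. Spry2, a relative that acts on receptor tyrosine kinases, read 10.36, 10.45 and 10.60 in Ctrl mice and 9.96, 10.11 and 10.28 in CIE mice (-0.35 ± 0.06, adjusted p = 1.15e-04). Both Sprouty genes separated the groups completely. Etv5 changed by -0.48 ± 0.08 (adjusted p = 8.25e-05) and Dusp6, the cytoplasmic ERK phosphatase, by -0.68 ± 0.18 (adjusted p = 0.00605). Spred1, named with Dusp6 after its value was seen, differed by -0.33 ± 0.09 (adjusted p = 0.00781). The phosphatases that rose were Dusp8 (0.25 ± 0.05, adjusted p = 0.00137), which prefers the stress kinases JNK and p38, and the dim Dusp2 (0.36 ± 0.09, adjusted p = 0.00540). In the fit without CIE mice 5, 11 and 17 the calls of Dusp4, Spry4, Spry2, Etv5 and Dusp8 remained and those of Dusp6, Spred1 and Dusp2 were lost (adjusted p = 0.0778 to 0.0894). Dusp8 did not pass in the 12 arrays alone (adjusted p = 0.0227). With the striatal term adjusted p was 0.0652 for Dusp6 and Spred1, and without CIE mouse 5 alone 0.0333 to 0.0340 for Dusp6 and Spred1.

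Klf10, an early response gene of TGF-beta, fell under every setting tried. It read 9.95, 10.14 and 10.41 in Ctrl mice and 8.42, 8.99 and 9.39 in CIE mice, with every CIE mouse well below the lowest Ctrl mouse (-1.24 ± 0.14, adjusted p = 1.88e-07). Of 15 Kruppel-like factors 1 other passed, Klf12, which rose (0.28 ± 0.07, adjusted p = 0.00367), and the median was 0.10. Its call was lost without CIE mice 5, 11 and 17 (adjusted p = 0.0248) and without CIE mouse 5 alone (adjusted p = 0.0126).

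**Figure D3:**
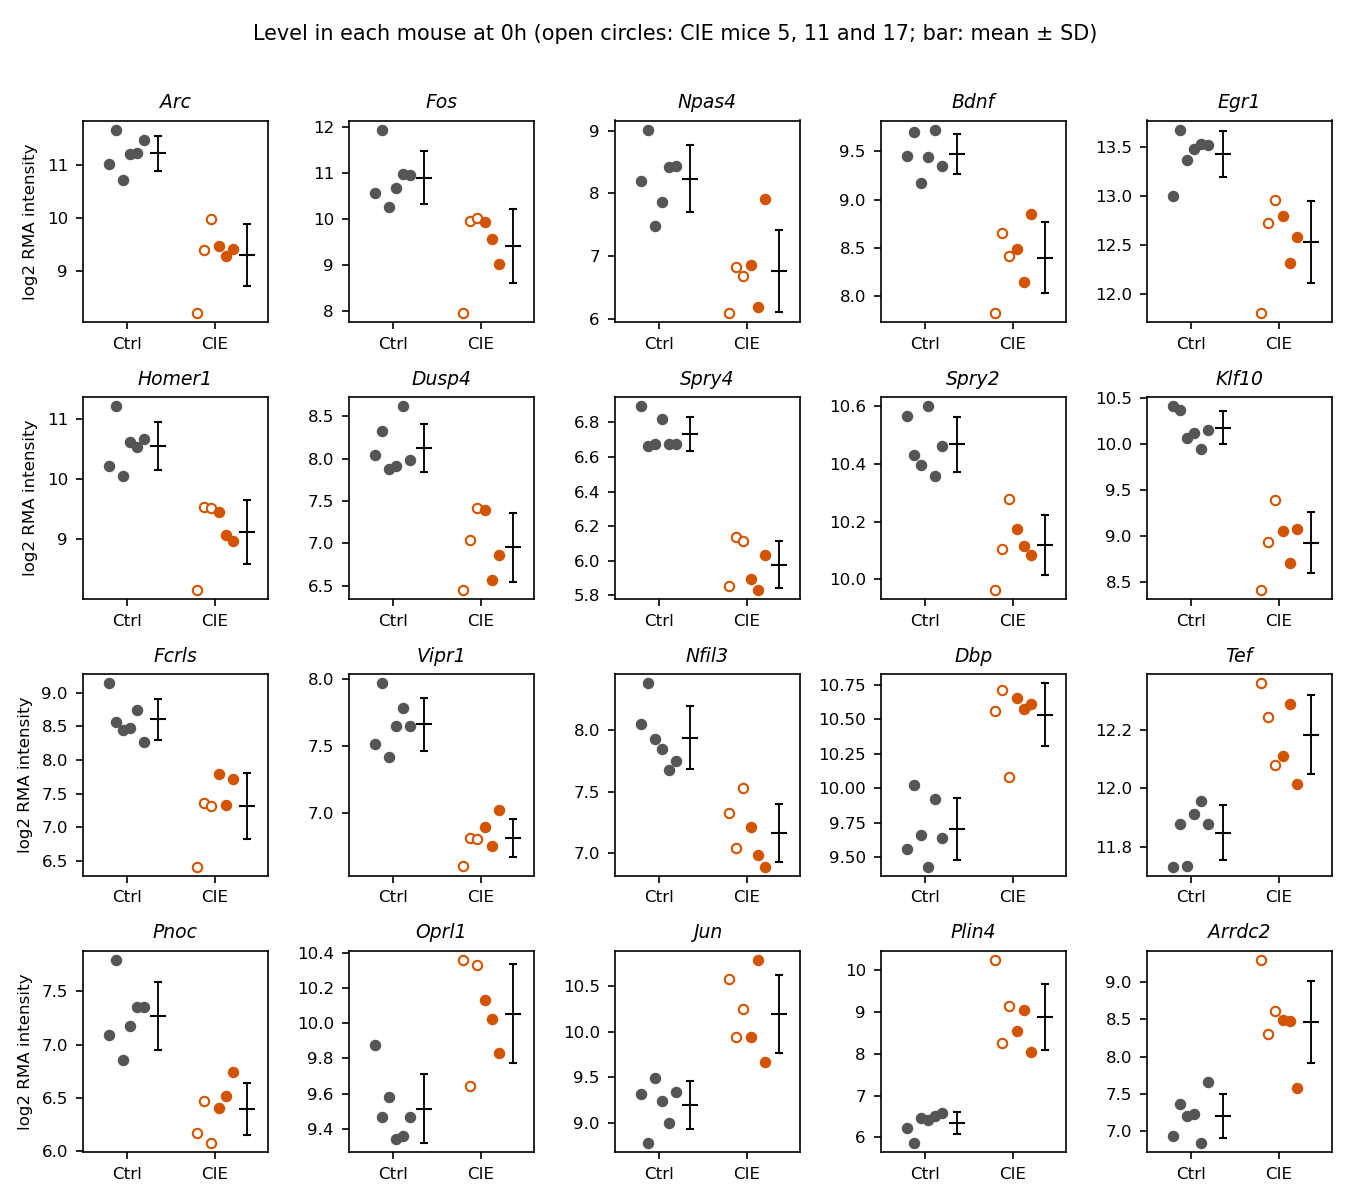
Level of 20 genes in each mouse at 0h (vertical axes, log2 RMA intensity, each panel on its own scale), with Ctrl mice in grey and CIE mice in orange, the mean ± SD beside each group, and CIE mice 5, 11 and 17, in which striatal markers were high, as open circles. Each gene is read from its probeset of smallest adjusted p; the groups overlap in Npas4, Oprl1 and Arrdc2 and in no other panel, and CIE mouse 5 is the lowest mouse in Arc, Fos, Homer1 and Fcrls.

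Among circadian clock genes 3 of 21 rose and 1 fell (median 0.06), where 3.95% of all genes rose and 3.52% fell, and 3 of these 4 encode factors that bind the D-box element. Dbp, a D-box activator with a large daily rhythm, rose on both of its probesets. The dimmer read 9.43, 9.65 and 10.02 in Ctrl mice and 10.08, 10.60 and 10.72 in CIE mice (0.83 ± 0.12, adjusted p = 1.14e-05) and the brighter 10.76, 11.23 and 11.47 in Ctrl mice and 11.61, 11.80 and 11.91 in CIE mice (0.63 ± 0.12, adjusted p = 4.60e-04), with no overlap on either. Tef, a relative of Dbp, read 11.73, 11.88 and 11.96 in Ctrl mice and 12.02, 12.18 and 12.36 in CIE mice (0.34 ± 0.06, adjusted p = 9.65e-05), again without overlap. Nr1d2, the REV-ERB beta repressor, changed by 0.19 ± 0.05 (adjusted p = 0.00367), a call lost without CIE mice 5, 11 and 17 (adjusted p = 0.0268) and in the 12 arrays alone (adjusted p = 0.0287). Nfil3, a repressor that competes with Dbp and Tef for the same element, read 7.68, 7.89 and 8.39 in Ctrl mice and 6.89, 7.13 and 7.53 in CIE mice and fell (-0.78 ± 0.14, adjusted p = 1.96e-04), the highest CIE mouse lying below the lowest Ctrl mouse.

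The core factors Arntl (-0.25), Clock (-0.10), Per1 (0.14), Per2 (0.06), Cry1 (-0.04) and Nr1d1 (0.06) did not pass, with adjusted p from 0.0993 to 0.882. Hlf, the remaining D-box activator, was at 0.08 (adjusted p = 0.691), and nearest to a call were Per3 (0.24, adjusted p = 0.0146) and Ciart (0.57, 0.0277). Dbp, Tef and Nfil3 kept their calls under every setting tried, including the fit without CIE mice 5, 11 and 17. Tef has an E-box, the CACGTG site of the clock's core activators, in a promoter window (2 promoters in the table), and it is shown because Dbp, Nfil3 and Nr1d2 have none there.
Tef, chr15:81802529-81802568, plus strand, E-box in capitals: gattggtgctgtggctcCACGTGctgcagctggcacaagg
An E-box stood in 6.86% of all 27025 genes and in 10.2% of those with a bright probeset, in 8.64% of the bright genes that rose and in 11.1% of those that fell, searched in the same 250 bases, where it reads the same on both strands.

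Several genes that respond to glucocorticoids rose. Of 26 measured 9 rose and 1 fell (38.5% against 7.47% of all genes), with a median of 0.30. Plin4, a coat protein of lipid droplets, read 5.85, 6.44 and 6.58 in Ctrl mice and 8.03, 8.81 and 10.25 in CIE mice. No CIE mouse came within 1 of the highest Ctrl mouse, and the difference was 2.54 ± 0.30 (adjusted p = 4.11e-07). Arrdc2, an arrestin-like adaptor, read 6.84, 7.22 and 7.66 in Ctrl mice and 7.58, 8.49 and 9.30 in CIE mice and overlapped slightly in 1 CIE mouse (1.26 ± 0.19, adjusted p = 1.20e-05). Sgk1, a kinase that regulates ion transport and one of the brightest called genes, read 11.76, 11.98 and 12.59 in Ctrl mice and 11.85, 12.79 and 13.01 in CIE mice. The lowest CIE mouse, number 72, lay within the Ctrl range, and the difference was 0.61 ± 0.16 (adjusted p = 0.00740).

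The other rises were those of Nfkbia (0.51 ± 0.10, adjusted p = 3.58e-04), the inhibitor of NF-kB, of Fkbp5 (0.50 ± 0.10, adjusted p = 6.98e-04), a co-chaperone that restrains the glucocorticoid receptor, and of Zbtb16 (0.42 ± 0.10, adjusted p = 0.00506). Sult1a1, a phenol sulfotransferase, changed by 0.89 ± 0.23 (adjusted p = 0.00631) and Hif3a, a hypoxia-inducible subunit named after its value was seen, by 0.43 ± 0.11 (adjusted p = 0.00565). Ddit4, an inhibitor of mTOR complex 1, differed by 0.63 ± 0.16 (adjusted p = 0.00687). Nr3c1, the glucocorticoid receptor itself, fell by 0.26 ± 0.05 with no overlap (adjusted p = 3.97e-04). The mean over this list was 9.83 to 10.41 in CIE mice 5, 11 and 17 and 9.66 to 10.02 in CIE mice 43, 67 and 72, against 9.51 to 9.68 in Ctrl mice. Of these, Plin4 and Arrdc2 passed as well without CIE mice 5, 11 and 17, and Sgk1, Nfkbia, Fkbp5, Zbtb16, Sult1a1, Hif3a, Ddit4 and Nr3c1 did not (adjusted p = 0.0133 to 0.231). Under the striatal term Sgk1, Hif3a and Ddit4 did not pass (adjusted p = 0.0263 to 0.0582), nor without CIE mouse 5 alone Sgk1, Zbtb16, Sult1a1, Hif3a and Ddit4 (0.0191 to 0.0334).

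Sgk1, with 6 promoters in the table, carries in one of them a stretch that matches the palindromic glucocorticoid response element, shown because such elements are bound by the hormone's receptor.
Sgk1, chr10:21993689-21993728, plus strand, match in capitals: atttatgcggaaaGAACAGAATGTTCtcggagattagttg
That palindrome, searched on both strands, was present in 0.440% of all 27025 genes and in 0.333% of those with a bright probeset, in 5 of the 382 bright genes that rose (1.31%) and in 0 of the 369 that fell. Plin4, Arrdc2, Nfkbia, Fkbp5, Sult1a1, Hif3a and Ddit4, which also rose, had no match there. Kcna5 and Txnip, named in other lists, had one.

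Of 33 genes of insulin, FoxO and mTOR signalling 5 rose and 1 fell, with a median of 0.11, against 3.95% and 3.52% of all genes. Besides Sgk1 and Ddit4 the rises were those of Sgk3 (0.70 ± 0.14, adjusted p = 5.33e-04), a related kinase, of Pik3r1 (0.33 ± 0.08, adjusted p = 0.00446), the regulatory subunit of PI3 kinase, and of Sesn1 (0.31 ± 0.08, adjusted p = 0.00800), a FoxO and p53 target that restrains mTOR. Trib1, a pseudokinase, fell (-0.68 ± 0.18, adjusted p = 0.00915). None of these 6 calls remained without CIE mice 5, 11 and 17, where adjusted p ran from 0.0289 to 0.233, and with the striatal term Sgk3 alone kept its call (adjusted p = 0.00732).

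Neuropeptide signalling changed at precursors and receptors. Pnoc, the precursor of nociceptin, read 6.85, 7.26 and 7.79 in Ctrl mice and 6.08, 6.44 and 6.74 in CIE mice. Its groups did not overlap and the difference was -0.87 ± 0.12 (adjusted p = 2.93e-06). Oprl1, the receptor for nociceptin, rose, with 9.34, 9.47 and 9.88 in Ctrl mice and 9.64, 10.08 and 10.36 in CIE mice. CIE mice 11 and 72 lay within the Ctrl range, and the difference was 0.54 ± 0.10 (adjusted p = 3.69e-04) on this probeset and 0.50 ± 0.11 (adjusted p = 0.00164) on a second one, where the groups did not overlap. These were the 2 of 8 opioid genes that passed. Pnoc and the second Oprl1 probeset kept their calls under every setting tried. The first Oprl1 probeset lost its call in the 12 arrays alone (adjusted p = 0.0161). Vipr1, the VPAC1 receptor for vasoactive intestinal peptide, read 7.41, 7.64 and 7.97 in Ctrl mice and 6.60, 6.81 and 7.02 in CIE mice (-0.85 ± 0.10, adjusted p = 3.03e-07) with no overlap.

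Of 27 other neuropeptides and receptors 4 fell and 0 rose, with a median of -0.19, where 3.52% of all genes fell and 3.95% rose. Sstr2, a somatostatin receptor, read 8.84, 8.96 and 9.31 in Ctrl mice and 7.82, 8.32 and 8.56 in CIE mice (-0.70 ± 0.13, adjusted p = 1.41e-04), the groups lying apart. Hcrtr1, the orexin receptor 1, differed by -0.77 ± 0.17 (adjusted p = 0.00177). Crhbp, which binds corticotropin-releasing hormone, changed by -0.52 ± 0.12 (adjusted p = 0.00177) without overlap. Ntsr2, a neurotensin receptor that is also an astrocyte marker, changed by -0.33 ± 0.07 (adjusted p = 5.96e-04). Of these 4, Ntsr2 kept its call without CIE mice 5, 11 and 17 (adjusted p = 0.00478), and the others had adjusted p = 0.0151 for Sstr2, 0.0275 for Hcrtr1 and 0.0448 for Crhbp. In the 12 arrays alone Ntsr2 and Hcrtr1 did not pass (adjusted p = 0.0121 and 0.0195). With the striatal term the call of Crhbp was lost (adjusted p = 0.0168).

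Most genes of the synapse itself did not pass. Across 12 lists of NMDA, AMPA, kainate and metabotropic glutamate receptors, glutamate and GABA transport and metabolism, monoamine receptors, endocannabinoids, adenylyl cyclases and phosphodiesterases, sodium and HCN channels, ion pumps, release proteins and postsynaptic scaffolds, 0 of 190 genes passed by limma and 32 had an unadjusted p of 0.05 or less (16.8%, against 28.4% of all genes and 25.4% of bright genes). Their median was 0.03 and 177 of them were bright. Each was read from its brightest probeset, while the synaptic genes Homer1 and Syt11 passed on other probesets. The members nearest to a call were Homer3 (0.36, adjusted p = 0.0197) and Lrrtm4 (0.35, 0.0293) among scaffolds and adhesion proteins, Hcn2 (0.31, 0.0198) and Scn3b (0.29, 0.214) among channels, Cacng8 (0.43, 0.0209) and Grik2 (0.33, 0.0653) among AMPA and kainate receptor genes, and Unc13a (-0.35, 0.0249) and Syt3 (0.37, 0.0251) in release. In the NMDA receptor list they were Grina (0.19, 0.0312), which is not itself a subunit, and Grin2c (-0.24, 0.196). For metabotropic receptors they were Grm5 (0.29, 0.0507) and Grm8 (-0.19, 0.145), and in the list of glutamate transport and metabolism the enzyme gene Glud1 (-0.10, 0.150) and Slc17a7 (0.31, 0.213). The GABA list was led by Gphn (0.19, 0.0507) and Gabbr1 (0.08, 0.175), the monoamine receptors by Htr1b (0.66, 0.0349) and Adra2c (0.26, 0.0631), the endocannabinoid list by Naaa (0.20, 0.249) and Mgll (0.15, 0.280), the pumps by Atp1b1 (0.10, 0.229) and Atp1b3 (0.10, 0.329), and the cyclase list by the striatal genes Ppp1r1b and Pde1b.

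Of the listed ligand-gated receptor subunits, 3 passed and all 3 fell. Chrna7, the alpha 7 nicotinic receptor, differed by -0.35 ± 0.07 (adjusted p = 8.29e-04) and Chrna3, a dim subunit, by -0.37 ± 0.10 (adjusted p = 0.00614), 2 of 10 acetylcholine receptor genes. Gabrq, the theta subunit of the GABA-A receptor, changed by -0.29 ± 0.07 (adjusted p = 0.00529) on a dim probeset and was 1 of 10 such subunits to pass. Gldc, the glycine-cleaving decarboxylase, read 8.13, 8.20 and 8.39 in Ctrl mice and 7.57, 7.72 and 7.78 in CIE mice. The groups lay clearly apart and the difference was -0.51 ± 0.07 (adjusted p = 6.49e-06), the only one of 8 glycine genes to pass. When CIE mice 5, 11 and 17 were left out, Chrna7 and Gldc kept their calls and Chrna3 and Gabrq did not (adjusted p = 0.0173 to 0.101). The striatal term ended the call of Chrna3 (adjusted p = 0.0568), and so did leaving out CIE mouse 5 for Chrna3 (0.0120). In the 12 arrays alone Chrna7 and Gabrq did not pass (adjusted p = 0.0118 and 0.0104).

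Potassium channels were mixed, with 3 of 24 voltage-gated members higher and 1 lower on their brightest probesets, against 3.95% and 3.52% of all genes. Kcnv1, a silent subunit that modifies other channels, fell on 2 of 3 probesets (-0.61 ± 0.13, adjusted p = 0.00131 and -0.55 ± 0.12, adjusted p = 0.00134). Kcnd2 (0.21 ± 0.05, adjusted p = 0.00426), the A-type channel of dendrites, rose with its auxiliary subunit Kcnip2 (0.33 ± 0.09, adjusted p = 0.00853), and Kcna5 read 5.42, 6.00 and 6.13 in Ctrl mice and 6.33, 6.89 and 7.89 in CIE mice (1.13 ± 0.31, adjusted p = 0.00974). Kcna5 rose without overlap, but its difference was 0.40 with striatal markers as a term. Another silent subunit, Kcnf1, named after its value was seen and not on the list, fell on both of its probesets, the brighter by -0.38 ± 0.08 (adjusted p = 0.00112). The small-conductance channel Kcnn3, on a dim probeset, was the 1 of 20 other potassium channels to pass (0.38 ± 0.10, adjusted p = 0.00562), and Itpr2, an inositol trisphosphate receptor, the 1 of 26 calcium channel genes (0.34 ± 0.07, adjusted p = 0.00140). None of the calls of Kcnv1, Kcnd2, Kcnip2, Kcna5, Kcnf1, Kcnn3 and Itpr2 remained without CIE mice 5, 11 and 17 (adjusted p = 0.0361 to 0.382). Adjusted p with the striatal term was 0.0118 to 0.0710 for Kcnv1, Kcnd2, Kcnip2, Kcna5 and Kcnn3, and without CIE mouse 5 alone 0.0160 to 0.0375 for Kcnip2, Kcna5 and Kcnn3.

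Among intracellular signalling genes Rgs2, a GTPase activator for Gq, changed by -0.36 ± 0.06 (adjusted p = 7.18e-05) without overlap and was the 1 of 16 Rgs genes to pass. Camk1, a calcium-calmodulin kinase, changed by -0.46 ± 0.10 (adjusted p = 8.52e-04), 1 of 21 kinases of that kind and protein kinase C. In the adenosine system Ada, adenosine deaminase, read 4.47, 4.78 and 4.87 in Ctrl mice and 5.05, 5.57 and 6.70 in CIE mice on a dim probeset (1.06 ± 0.17, adjusted p = 2.44e-05). Every CIE mouse lay above every Ctrl mouse, while the dim Slc29a4, a nucleoside and monoamine transporter, fell (-0.52 ± 0.11, adjusted p = 6.45e-04). Beside Bdnf, 1 of 17 neurotrophin genes passed on its brightest probeset, the dim Ngfr (0.46 ± 0.12, adjusted p = 0.00597), which had calls in both directions, 2 of its 3 probesets being higher and 1 lower. In the fit without CIE mice 5, 11 and 17 the calls of Rgs2, Ada and Slc29a4 remained and those of Camk1 and Ngfr were lost (adjusted p = 0.0465 to 0.0531). With the striatal term adjusted p was 0.0210 for Ngfr, and without CIE mouse 5 alone 0.0115 for Ngfr.

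**Figure D4:**
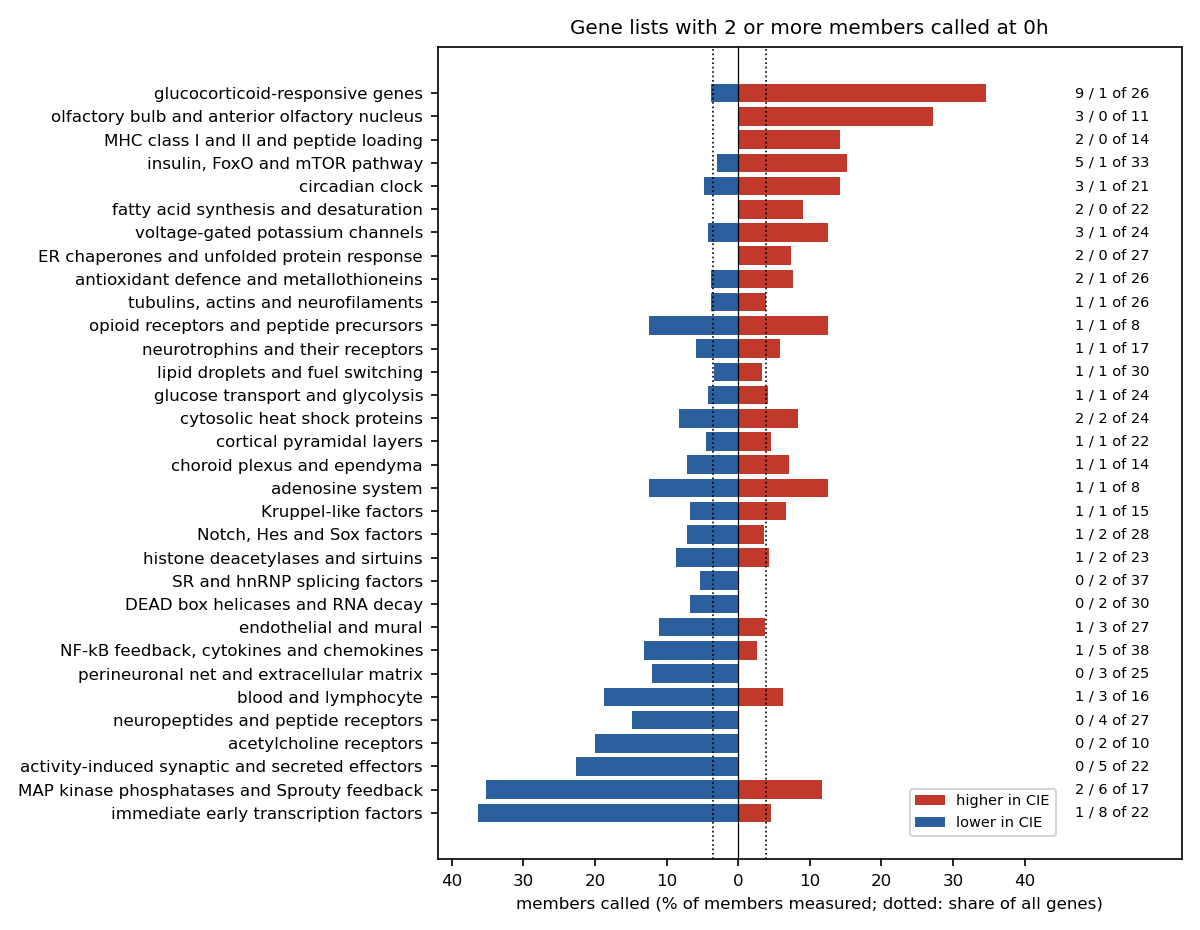
Members called higher (right, red) and lower (left, blue) in CIE mice as a percentage of the members measured (horizontal axis), for the gene lists with 2 or more calls, with the counts at the right and dotted lines at the share of all genes (3.95% higher and 3.52% lower). Immediate early transcription factors and MAP kinase feedback genes extend furthest to the left and glucocorticoid-responsive genes furthest to the right.

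Lipid and glucose genes gave single changes. Dgat2, which makes triglycerides, rose (0.52 ± 0.09, adjusted p = 7.78e-05) with Acsl3 (0.22 ± 0.05, adjusted p = 0.00167), an acyl-CoA synthetase of lipid droplets, both without overlap and 2 of 22 genes of fatty acid synthesis. Besides Plin4, Fabp7, the fatty acid binding protein of astrocytes and their precursors, was the 1 of 30 lipid droplet and fuel genes to pass (-0.78 ± 0.15, adjusted p = 5.02e-04). Nr1h3, the LXR alpha receptor, fell on a dim probeset (-0.36 ± 0.09, adjusted p = 0.00421), 1 of 27 cholesterol genes. In glycolysis Pfkp, a phosphofructokinase, fell (-0.26 ± 0.05, adjusted p = 2.86e-04) and Slc2a1, the glucose transporter of the vessel wall, rose (0.38 ± 0.10, adjusted p = 0.00853), 2 of 24. These counts lie near or below the 7.47% of all genes. Of these, Fabp7 passed as well without CIE mice 5, 11 and 17, and Dgat2, Acsl3, Nr1h3, Pfkp and Slc2a1 did not (adjusted p = 0.0145 to 0.205). Under the striatal term Slc2a1 did not pass (adjusted p = 0.0514), nor without CIE mouse 5 alone Slc2a1 (0.0337). Slc2a1 lost its call under 14 of the 22 settings.

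In the unfolded protein response, 2 of 27 genes rose (7.41%, where 7.47% of all genes passed), the kinase gene Eif2ak3 (0.31 ± 0.07, adjusted p = 0.00151) and the dim Trib3 (0.35 ± 0.08, adjusted p = 0.00177), a target of that branch. Among 24 cytosolic heat shock genes 16.7% passed. The inducible Hspa1a (0.65 ± 0.14, adjusted p = 0.00122) and Dnajb4 (0.22 ± 0.05, adjusted p = 0.00378) rose and Dnajb5 (-0.59 ± 0.12, adjusted p = 4.86e-04) and Hsph1 (-0.19 ± 0.04, adjusted p = 0.00204) fell. Antioxidant genes gave 3 of 26 (11.5%). Srxn1, sulfiredoxin, rose by 0.40 ± 0.09 (adjusted p = 0.00298) and Txnip, the thioredoxin inhibitor, by 0.69 ± 0.17 (adjusted p = 0.00430), while Gsta4, a glutathione transferase for lipid aldehydes, fell (-0.38 ± 0.10, adjusted p = 0.00968). When CIE mice 5, 11 and 17 were left out, Hspa1a kept its call and Eif2ak3, Trib3, Dnajb4, Dnajb5, Hsph1, Srxn1, Txnip and Gsta4 did not (adjusted p = 0.0120 to 0.117). The striatal term ended the calls of Dnajb4 and Txnip (adjusted p = 0.0169 to 0.0278), and so did leaving out CIE mouse 5 for Dnajb4, Txnip and Gsta4 (0.0121 to 0.0223).

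Chromatin and RNA genes passed singly. Bcor, a corepressor of Bcl6 and of Polycomb, fell on all 3 of its probesets. The brightest read 8.08, 8.20 and 8.33 in Ctrl mice and 7.44, 7.52 and 7.73 in CIE mice, the groups far apart (-0.65 ± 0.09, adjusted p = 2.27e-06). Hdac2 fell (-0.24 ± 0.06, adjusted p = 0.00254) and its close relative Hdac1 rose (0.30 ± 0.08, adjusted p = 0.00561), making 3 of 23 deacetylase genes with their partners. Suv39h2, a methyltransferase for histone H3, fell on a dim probeset (-0.55 ± 0.13, adjusted p = 0.00229), 1 of 42 histone modifiers. Of 37 splicing factors Hnrnpa2b1 (-0.27 ± 0.06, adjusted p = 0.00157) and Srsf3 (-0.26 ± 0.06, adjusted p = 0.00229) fell, and of 30 helicases and RNA decay genes the RNA-binding proteins Elavl4 (-0.33 ± 0.08, adjusted p = 0.00279) and Fmr1 (-0.21 ± 0.05, adjusted p = 0.00542). Bcor also passed without CIE mice 5, 11 and 17, where adjusted p was 0.0202 to 0.218 for Hdac2, Hdac1, Suv39h2, Hnrnpa2b1, Srsf3, Elavl4 and Fmr1. Adjusted p with the striatal term was 0.0186 to 0.0311 for Hdac1, Elavl4 and Fmr1, and without CIE mouse 5 alone 0.0144 to 0.0267 for Hdac1, Elavl4 and Fmr1.

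Housekeeping classes had few calls. In 8 lists covering the respiratory chain, translation factors, the proteasome, microRNA processing, chromatin remodelers, DNA methylation, Wnt signalling and the metabolism of ethanol and acetaldehyde, 0 of 211 genes passed by limma and 42 had an unadjusted p of 0.05 or less (19.9%), with a median of -0.03. That share was 28.4% over all genes and 25.4% over bright genes. Each gene was read from its brightest probeset, and Sdha, of respiratory complex II, passed on another one (-0.21 ± 0.04, adjusted p = 6.68e-04). Nearest to a call in these lists were Ndufs4 (-0.21, adjusted p = 0.0372) and Ndufs7 (-0.14, 0.0686) of complex I, Eif4b (0.14, 0.0309) and Eif1a (-0.20, 0.0391), Psmd6 (0.14, 0.0146) and Psme4 (0.27, 0.0156), Tnrc6b (0.25, 0.0365) and Dgcr8 (0.19, 0.0516), Chd1 (-0.36, 0.0159) and Smarca5 (-0.17, 0.174), Gadd45b (-0.81, 0.0192) and Gadd45a (-0.71, 0.0249), Apc (0.14, 0.0209) and Wnt7a (-0.26, 0.0361), and Acss1 (0.27, 0.0143), which activates acetate, with Aldh1b1 (0.35, 0.0426). Single calls came from Rps27 (0.26 ± 0.06, adjusted p = 0.00472) among 28 ribosomal proteins, the deubiquitinase Cyld (0.35 ± 0.06, adjusted p = 2.25e-04) among 34 ubiquitin genes, Gla (-0.60 ± 0.14, adjusted p = 0.00190), a lysosomal galactosidase, among 32 lysosome and autophagy genes, and Ccnd1, cyclin D1 (-0.42 ± 0.10, adjusted p = 0.00290), among 28 cell cycle genes. Without CIE mice 5, 11 and 17 the calls of Rps27, Cyld, Gla and Ccnd1 were lost (adjusted p = 0.0390 to 0.104). With the striatal term adjusted p was 0.0175 to 0.0230 for Rps27, Gla and Ccnd1, and without CIE mouse 5 alone 0.0157 to 0.0159 for Rps27 and Ccnd1.

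Of the cytoskeleton, Stmn4, a stathmin, rose (0.29 ± 0.07, adjusted p = 0.00298) and cofilin, Cfl1, fell (-0.32 ± 0.09, adjusted p = 0.00904), 2 of 26, and the kinesin Kif21b fell (-0.29 ± 0.06, adjusted p = 0.00149), 1 of 19 motors. Of 25 matrix genes 3 fell and 0 rose, against 3.52% and 3.95% of all genes. They were the aggrecan-cleaving proteases Adamts1 (-0.74 ± 0.16, adjusted p = 0.00127) and Adamts5 (-0.68 ± 0.13, adjusted p = 2.62e-04) and the hyaluronan synthase Has2 (-0.40 ± 0.09, adjusted p = 0.00144), the last pair on dim probesets. In developmental pathways the activin receptor Acvr1b rose (0.21 ± 0.05, adjusted p = 0.00501), 1 of 36 genes of TGF-beta signalling, and 3 of 28 Notch, Hes and Sox genes passed. Hes5, a Notch target of progenitors and astrocytes, read 6.66, 6.86 and 8.10 in Ctrl mice and 5.77, 5.93 and 6.88 in CIE mice (-0.88 ± 0.20, adjusted p = 0.00175), with the highest Ctrl mouse far above the others. Maml2, a Notch coactivator, fell on a dim probeset (-0.60 ± 0.08, adjusted p = 2.75e-06). Sox11, a factor of young neurons, read 7.45, 7.71 and 7.91 in Ctrl mice and 7.99, 8.61 and 8.90 in CIE mice and rose (0.85 ± 0.16, adjusted p = 3.87e-04). Of these, Adamts5 and Maml2 passed as well without CIE mice 5, 11 and 17, and Stmn4, Cfl1, Kif21b, Adamts1, Has2, Acvr1b, Hes5 and Sox11 did not (adjusted p = 0.0104 to 0.140). Under the striatal term Cfl1 did not pass (adjusted p = 0.0340), nor without CIE mouse 5 alone Cfl1 and Acvr1b (0.0197 to 0.0281).

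Sox11 is also on a list of olfactory bulb and anterior olfactory genes, tissue that lies in front of the dissected cortex, of which 3 of 11 rose and 0 fell, against 3.95% and 3.52% of all genes. The others were Doc2g (0.51 ± 0.09, adjusted p = 7.48e-05) and Cdhr1 (0.66 ± 0.18, adjusted p = 0.00923), both dim. When CIE mice 5, 11 and 17 were left out, Doc2g kept its call and Cdhr1 did not (adjusted p = 0.0590). The striatal term ended the call of Cdhr1 (adjusted p = 0.0627), and so did leaving out CIE mouse 5 for Cdhr1 (0.0189). The mean over the 11 genes was 6.42 to 6.62 in CIE and 6.16 to 6.41 in Ctrl mice. Its part in the changes of other genes was not tested.

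Glial markers changed in few members. Fcrls, a receptor of microglia, read 8.26, 8.53 and 9.14 in Ctrl mice and 6.42, 7.34 and 7.79 in CIE mice. The groups did not overlap, CIE mouse 5 being far below the others, and the difference was -1.29 ± 0.15 (adjusted p = 1.80e-07). It was the 1 of 25 microglial markers to pass, and their mean was 8.25 to 8.64 in Ctrl and 8.11 to 8.65 in CIE mice. Ntsr2 was the 1 of 25 astrocyte markers. Oligodendrocyte and precursor lists had 0 of 22 and 0 of 13 calls by limma, with 2 and 3 genes at an unadjusted p of 0.05 or less, led by Olig2 (-0.19, adjusted p = 0.171) and Apod (0.48, 0.118) and by Gpr17 (-0.44, 0.0708) and Cspg4 (0.23, 0.0931). Cortical interneuron markers had 0 of 24 calls and 5 at that level, led by Erbb4 (-0.24, 0.0155) and Cck (-0.26, 0.0377). The leading striatal marker was Rasd2 (0.86, 0.0136).

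Among 27 endothelial and mural markers 14.8% passed, against 7.47% of all genes. The surface mucin Emcn (-0.46 ± 0.10, adjusted p = 0.00102), basigin, Bsg (-0.39 ± 0.10, adjusted p = 0.00717), and the pericyte potassium channel Kcnj8 (-0.36 ± 0.09, adjusted p = 0.00748) fell, and Slc2a1 rose. A pair of projection-neuron factors passed in opposite directions among 22 pyramidal layer markers, Neurod2 (0.43 ± 0.08, adjusted p = 4.20e-04) higher and Neurod6 (-0.38 ± 0.10, adjusted p = 0.00831) lower. Choroid plexus genes gave Kl (-0.46 ± 0.09, adjusted p = 3.27e-04), which encodes klotho, and Clic6 (0.51 ± 0.12, adjusted p = 0.00317) of 14, both dim. Neurod2 also passed without CIE mice 5, 11 and 17, where adjusted p was 0.0114 to 0.208 for Emcn, Bsg, Kcnj8, Slc2a1, Neurod6, Kl and Clic6. Adjusted p with the striatal term was 0.0122 to 0.0514 for Emcn, Bsg, Kcnj8, Slc2a1, Neurod6 and Clic6, and without CIE mouse 5 alone 0.0108 to 0.0383 for Bsg, Kcnj8, Slc2a1, Neurod6 and Clic6. Meningeal genes gave 0 of 14, led by Col1a1 (-0.24, adjusted p = 0.0974) and Igfbp2 (-0.83, 0.147), with 4 at an unadjusted p of 0.05 or less.

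Immune genes passed in several lists. In the list of NF-kB feedback and cytokine genes 5 of 38 fell and 1, Nfkbia, rose, with a median of -0.11, against 3.52% and 3.95% of all genes. The falls were those of the cytokine signal suppressors Socs1 (-0.57 ± 0.10, adjusted p = 7.99e-05) and Socs2 (-0.34 ± 0.08, adjusted p = 0.00186), of the NF-kB regulators Bcl3 (-0.56 ± 0.12, adjusted p = 9.46e-04) and Nfkbie (-0.56 ± 0.12, adjusted p = 0.00121), and of Tnfaip3 (-0.49 ± 0.11, adjusted p = 0.00136), the A20 enzyme, which fell on both of its probesets. Socs1, Bcl3 and Nfkbie were read on dim probesets, and 15 of the 38 members were bright. MHC genes had differences above 0 in 13 of 14 members (median 0.75) with 2 passing. H2-Ab1, a class II chain, read 5.67, 6.27 and 8.57 in Ctrl mice and 7.22, 8.45 and 9.87 in CIE mice (1.75 ± 0.42, adjusted p = 0.00340) and Tap1, a subunit of the peptide transporter, 5.68, 6.46 and 7.49 in Ctrl mice and 6.56, 7.36 and 8.55 in CIE mice (1.01 ± 0.27, adjusted p = 0.00867), and both overlapped widely between groups. Irf8 rose (0.48 ± 0.13, adjusted p = 0.00701), 1 of 36 interferon-stimulated genes, of which 32 were above 0 (median 0.17). The complement list had 0 of 16 calls by limma and 3 genes at an unadjusted p of 0.05 or less, led by Lcn2 (-0.21, 0.0511). Blood genes gave 3 falls and 1 rise of 16, in Ighm (-1.02 ± 0.25, adjusted p = 0.00413), the mu heavy chain, Camp (-0.52 ± 0.08, adjusted p = 2.22e-05), the cathelicidin of neutrophils, and Alas2 (-0.59 ± 0.14, adjusted p = 0.00418), an erythroid enzyme, against Ngp (0.29 ± 0.07, adjusted p = 0.00668), all but Ighm dim. Of the 11 probesets assigned to Ighm 2 passed in this direction and 1 in the other. In the fit without CIE mice 5, 11 and 17 the calls of Nfkbie, Tnfaip3 and Camp remained and those of Socs1, Socs2, Bcl3, H2-Ab1, Tap1, Irf8, Ighm, Alas2 and Ngp were lost (adjusted p = 0.0186 to 0.246). With the striatal term adjusted p was 0.0104 to 0.0526 for Socs2, H2-Ab1, Tap1, Irf8, Ighm, Alas2 and Ngp, and without CIE mouse 5 alone 0.0109 to 0.0226 for Tap1, Ighm, Alas2 and Ngp.

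The remaining large rises among bright probesets came from genes outside these lists. Gata2, a zinc finger factor, read 5.94, 6.10 and 6.15 in Ctrl mice and 6.83, 6.96 and 7.11 in CIE mice. The groups were far apart, and the difference was 0.89 ± 0.15 (adjusted p = 5.59e-05), while its brighter probeset differed by 0.29 (adjusted p = 0.0576). Syce2, a gene of the synaptonemal complex, read 6.25, 6.63 and 6.98 in Ctrl mice and 7.24, 7.43 and 7.86 in CIE mice (0.88 ± 0.13, adjusted p = 1.32e-05), also with no overlap. Fgf14, a partner of sodium channels, rose by 0.82 ± 0.16 (adjusted p = 3.29e-04) and 3 of its 4 probesets passed, the brightest by 0.33. Matn2, a matrix protein, changed by 0.84 ± 0.21 (adjusted p = 0.00557), with 0.38 on its brighter probeset (adjusted p = 0.0316). The peptidase Mme, which encodes neprilysin, changed by 0.89 ± 0.21 (adjusted p = 0.00345) and the predicted gene Gm19439 by 0.98 ± 0.24 (adjusted p = 0.00423). The last of the large falls was Lmna, lamin A, on 1 of 5 probesets (-0.84 ± 0.19, adjusted p = 0.00217), the brightest being at -0.39 (adjusted p = 0.0686). Of the 15 largest rises 14 had all 6 CIE mice above the Ctrl mean and 9 had no overlap, and of the 15 largest falls the counts were 14 and 12. These were picked by the size of their change, and over all bright probesets the groups did not overlap in 1.96% (CIE above) and 2.20% (CIE below). Of these, Gata2, Syce2 and Lmna passed as well without CIE mice 5, 11 and 17, and Fgf14, Matn2, Mme and Gm19439 did not (adjusted p = 0.0265 to 0.228). Under the striatal term Mme and Gm19439 did not pass (adjusted p = 0.0389 to 0.0486), nor without CIE mouse 5 alone Matn2, Mme and Gm19439 (0.0139 to 0.0217).

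The brightest called genes changed by small amounts. Besides Egr1, Sgk1 and Hsph1, Chst1, a sulfotransferase for keratan sulfate, rose (0.26 ± 0.07, adjusted p = 0.00549), as did Syt11, a synaptotagmin, on 2 of 5 probesets (0.22 ± 0.06, adjusted p = 0.00582, with 0.08 on the brightest), Rapgef2, an activator of Rap1 (0.28 ± 0.07, adjusted p = 0.00382), and Pcyox1, a lysosomal oxidase (0.17 ± 0.04, adjusted p = 0.00301). Falls were those of the actin bundler Fscn1 (-0.21 ± 0.06, adjusted p = 0.00686), of Mllt11 (-0.23 ± 0.05, adjusted p = 0.00135) and of Sdha (-0.21 ± 0.04, adjusted p = 6.68e-04), a subunit of respiratory complex II, whose brightest probeset differed by -0.03 (adjusted p = 0.695). Of the 10 brightest, 9 had all 6 CIE mice beyond the Ctrl mean and 6 had no overlap between groups. These 10 were taken from called probesets, so some separation of the groups follows from the choice. Over all bright probesets the groups did not overlap in 1.96% (CIE above) and 2.20% (CIE below). When CIE mice 5, 11 and 17 were left out, Sdha kept its call and Chst1, Syt11, Rapgef2, Pcyox1, Fscn1 and Mllt11 did not (adjusted p = 0.0134 to 0.129). The striatal term ended the calls of Chst1, Syt11, Rapgef2 and Fscn1 (adjusted p = 0.0130 to 0.0208), and so did leaving out CIE mouse 5 for Chst1, Syt11, Rapgef2 and Fscn1 (0.0114 to 0.0244).

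A gene read by more than 1 probeset offers a check within the array. Of 4565 genes with 2 or more bright probesets, 29 passed on all of them in one direction, 13 higher and 16 lower. The largest of these after Bdnf and Dbp were Serpinb8 (-0.73 and -0.57), a protease inhibitor, the centrosomal gene Cep41 (-0.55 and -0.62), Ptges3l (-0.62 and -0.54), a p23-like co-chaperone, Rbm4b (-0.46 and -0.54), an RNA-binding protein, and Sgsm1 (-0.40 and -0.53), a regulator of Rab and Rap GTPases, which fell. Those that rose were Fam214a (0.54 and 0.54), Caln1 (0.50 and 0.50), which encodes the calcium sensor calneuron, and Ttc39c (0.44, 0.46 and 0.58). Opposite calls on bright probesets of 1 gene occurred in 3 of the 73 genes with 2 or more bright calls, Cyhr1, Fbxo3 and Miat, named after their values were seen. Over all probesets it was 27 of 153. Of the genes called on all bright probesets and named here, Sgsm1 kept its calls without CIE mice 5, 11 and 17 and the other 7 lost all of theirs (adjusted p = 0.0116 to 0.231). With the striatal term, and also without CIE mouse 5 alone, each of these 7 lost its call on at least 1 probeset.

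The ethanol effect at 0h was then set against the mean of the effects at 8h, 72h and 7d, each against its own Ctrl mice. The contrast passed for 1482 probesets (3.29% of 45037), 438 of them bright (1.95%), and for 351 of the 1240 bright probesets called at 0h (28.3%). The contrast shares the 0h arrays with the comparison above. Homer1 had the largest difference of the named genes that fell at 0h, from -1.43 at 0h to a later mean of 0.42, a difference of -1.86 ± 0.32 (adjusted p = 2.94e-04). Spry2 fell by 0.35 at 0h and rose by 0.30 at 8h (adjusted p = 0.00242), and Egr3 fell by 0.65 at 0h and rose by 0.80 at 8h (adjusted p = 0.00117). Further genes that fell at 0h and rose at 8h were Dnajb5 (0.60), Bcor (0.40), Nab2 (0.37), Chrna3 (0.41), Sgsm1 (0.34 and 0.38) and Fscn1 (0.25). Their adjusted p at 8h was 0.00182 to 0.00898. Tef turned from 0.34 to -0.37 (adjusted p = 2.59e-04), and Dbp from 0.83 to -0.37 (adjusted p = 0.0546), which did not pass at 8h.

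Fos and Nr4a1 did not pass this contrast, and their later means were -0.03 and 0.04 (adjusted p = 0.0275 and 0.0185). Among the genes that passed at 8h in the direction of 0h as well were Plin4, Arrdc2 and Fcrls (2.19, 0.86 and -0.89, adjusted p = 6.68e-05, 0.00426 and 5.07e-04). Others were Sgk1 (0.86, adjusted p = 0.00125), Fkbp5 (0.44, 0.00695), Sult1a1 (1.18, 0.00177), H2-Ab1 (2.14, 0.00188) and Nr3c1 (-0.25, 0.00226). The median over the glucocorticoid list was 0.30 at 0h and 0.31 at 8h, and over the MHC list 0.75 and 0.85. Ctrl mice were not constant over time. Arc averaged 11.2 in Ctrl mice at 0h and 10.6, 10.2 and 9.91 at 8h, 72h and 7d, and Dusp4 8.13, 7.84, 7.51 and 7.46, so that both were highest in the Ctrl mice of 0h.

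**Figure D5:**
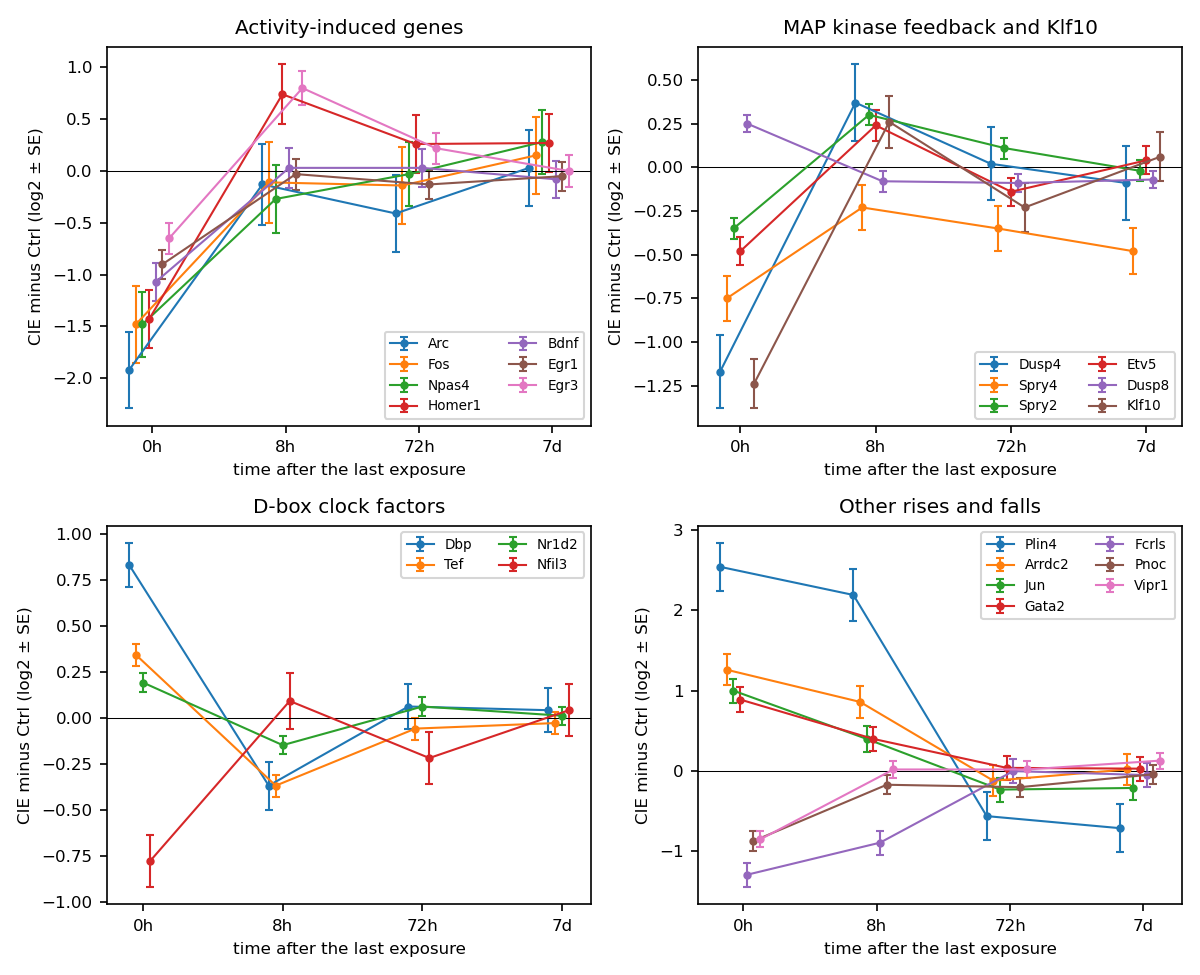
Ethanol effect (vertical axes, CIE minus Ctrl, log2 ± SE of the limma fit) at 0h, 8h, 72h and 7d after the last exposure (horizontal axes, in order and not to scale) for genes named in the text, read from the probeset of smallest adjusted p at 0h. Egr3 (0.80) and Spry2 (0.30) lie above 0 at 8h and Dbp and Tef (-0.37 each) below, while Plin4, Arrdc2 and Fcrls keep the direction of 0h at 8h.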

How the data were processed

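RNA from the PFC of 47 mice was hybridized to Affymetrix mouse genome arrays, 1 array per mouse. The deposited values are log2 RMA intensities. For the tissues of the study the authors describe RMA by hybridization batch with the affy package, a joint quantile normalization and ComBat. For the PFC, named as an exception, the batch correction used repeat group alone, and whether its arrays were first normalized by hybridization batch is not clear from the methods. The submitters' processing notes name RMA, and no version is given in the labels or methods. Such scaling sets array medians equal, so a change shared by most genes cannot be seen, and all 0h arrays belong to repeat group 1.

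The limma package (3.58.1, R 4.3.3) was used to fit all 45037 probesets as 8 group means over 47 arrays (39 residual degrees of freedom), which share 1 estimate of the spread. CIE minus Ctrl at 0h, and that difference minus the mean of the later ones, were tested with Benjamini-Hochberg adjustment over all probesets at FDR 0.01, and every adjusted p in the text is from limma. Of the probesets, 34945 have 1 gene symbol in the platform annotation, 932 several and 9160 none. In the 75 gene lists each gene was read from its 1-symbol probeset of highest mean. Members and lists were chosen with earlier results of these data known. Named were the 15 largest rises and falls and 10 brightest among bright calls, 10 genes called on all bright probesets, and up to 6 called members of a list (2 of smallest p where none passed). The fit was tested on simulated data. Alternatives are given in the closing section. Tables and figures were made in Python 3.11.15.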

Additional observations from a re-analysis of the deposited data

Results flagged for a closer look

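In 27 of 424 sets of 6 mice, 1 set per group and named probeset, the highest or the lowest mouse stood further from its nearest neighbour than Dixon's 95% limit for the gap over the range, a limit that chance passes in about 1 of 20 sets. Mice 12 and 17 accounted for 5 each. Ctrl mouse 2 was so placed in Gldc (highest, 8.39), Psmd6 (highest, 12.12), Hdac2 (highest, 11.89) and Matn2 (highest, 7.24). Ctrl mouse 12 was so placed in Hes5 (highest, 8.10), Ighm (highest, 12.91), Gata2 (lowest, 5.94), Sult1a1 (lowest, 7.34) and Ighm (highest, 10.92). Ctrl mouse 20 was so placed in Camp (highest, 5.69) and Lmna (highest, 7.63). Ctrl mouse 48 was so placed in Acsl3 (lowest, 11.41). Ctrl mouse 56 was so placed in Kcna5 (lowest, 5.42) and Txnip (highest, 9.05). CIE mouse 5 was so placed in Txnip (highest, 9.87), Gla (lowest, 6.62) and Fcrls (lowest, 6.42). CIE mouse 11 was so placed in Wnt7a (highest, 6.60). CIE mouse 17 was so placed in Slc29a4 (highest, 4.58), Srxn1 (lowest, 10.45), Dbp (lowest, 10.08), Lmna (highest, 7.00) and Pcyox1 (lowest, 12.53). CIE mouse 67 was so placed in Glud1 (lowest, 11.68) and Stmn4 (highest, 12.29). CIE mouse 72 was so placed in Trib3 (lowest, 5.91) and Sgk1 (lowest, 11.85).

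In 67 of 212 named probesets the 0h effect differed from the mean of the 8h, 72h and 7d effects at FDR 0.01 in the limma fit. The contrast passed for 3.29% of all probesets and for 28.3% of bright probesets called at 0h. Of the 212, 161 were called at 0h, so a high share follows in part from how they were named. The values here are the 0h effect minus that mean, in log2 units. The later effects come from other mice, while the 0h arrays are those of the comparison above. Among probesets that fell at 0h it was -0.82 for Egr1, -0.53 for Ier5, -1.47 for Npas4, -0.99 for Egr3, -0.45 for Nab2, -1.07 for Bdnf, -1.75 for Arc and -0.82 for Gpr3. It was -0.85 for Pcsk1, -0.53 for Etv5, -0.48 for Spry2, -1.28 for Dusp4, -1.27 for Klf10, -0.75 for Nfil3, -0.34 for Chrna7 and -0.46 for Chrna3. It further came to -0.73 for Pnoc, -0.57 for Slc29a4, -0.50 for Camk1, -0.30 for Rgs2, -0.67 for Kcnv1, -0.48 for Has2, -0.67 for Dnajb5 and -0.34 for Hnrnpa2b1. The difference was -0.30 for Srsf3, -0.74 for Bcor, -0.63 for Socs1, -0.51 for Tnfaip3, -0.97 for Fcrls, -0.56 for Neurod6, -0.49 for Kl and -0.44 for Camp. For others it was -1.86 for Homer1, -0.90 for Vipr1, -0.26 for Fscn1, -0.26 for Mllt11, -1.13 for Bdnf, -0.63 for Cep41, -0.79 for Ptges3l and -0.69 for Ptges3l. It also was -0.52 for Rbm4b, -0.54 for Sgsm1, -0.74 for Sgsm1, -0.44 for Kcnf1 and -0.57 for Kcnv1. Among those that rose it was 1.01 for Jun, 0.33 for Dusp8, 2.24 for Plin4, 1.00 for Arrdc2, 0.49 for Tef, 0.78 for Dbp, 0.21 for Nr1d2 and 0.56 for Oprl1. It was 1.03 for Ada, 0.31 for Stmn4, 0.37 for Eif2ak3, 0.46 for Dgat2, 0.41 for Pik3r1, 0.43 for Sesn1, 0.26 for Acvr1b and 0.41 for Neurod2. It further came to 0.51 for Doc2g, 0.73 for Gata2, 0.92 for Dbp, 0.21 for Pcyox1 and 0.60 for Fam214a. Among those not called at 0h it was 0.49 for Acss1.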

How the results depend on the processing

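The counts are of probesets at FDR 0.01 over all probesets, over bright probesets and for the 0h effect against later times, reported as 3277, 1240 and 1482. With array weights they were 5240, 2207 and 3850, with bright probesets alone tested 1106, 1106 and 322, and with striatal markers as a term 2211, 819 and 961. In the 12 arrays of 0h alone, with fewer samples for the variance, the first 2 counts were 2027 and 480. Without CIE mice 5, 11 and 17, an alternative chosen after seeing the data, they were 891, 322 and 378, and the share of bright calls that were rises was 41.0% in place of 49.9%. Leaving out each mouse in turn gave 2165 to 2984, 729 to 1225 and 980 to 1294, the lowest of each without CIE mouse 5, and without CIE mouse 17 the share of rises among bright calls was 40.7%. Except for the named cases of construction, the cause was not tested. Centring, a further quantile normalization, a repeat group term, trended and robust moderation, and leaving out repeat group 2 kept each count within 1.5 times. Of 161 named probesets called, 35 kept their call under all 22 settings (21 for dim probesets) and 126 lost it under at least 1 (116 without the 3 mice, 87 in the 12 arrays alone, 63 with the striatal term, 56 without CIE mouse 5), and 0 reversed. Reading each gene from its most variable probeset moved 43 list counts by more than 1.5 times and left 107 within it, and counting any bright probeset moved 34 and left 116. No paired analysis was possible because the mouse numbers in the labels are not shared between the groups. On simulated data at 0h the fit recovered 16.5% of probesets changed by 0.25, 65% of those changed by 0.5 and 95.5% of those changed by 1. The simulation used independent noise and changed 200 of 45037 probesets at each size, fewer than the 3277 that passed here. The FDR limit depends on how many probesets change, so these recovery rates need not hold for this comparison. Dim probesets have signal near background.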
